A study of Oryzias latipes with 3 samples.

Results

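Acetylated sites beside H3K4me3 peaks were examined in whole embryos of the medaka Oryzias latipes, a small freshwater fish used as a laboratory model. Members were the peaks of H3K27ac, acetylation of lysine 27 on histone H3, that shared no base with a peak of H3K4me3, trimethylation of lysine 4 on histone H3. They also had to be under 2500 bp wide and to have their midpoint within 5000 bp of an H3K4me3 midpoint on the same chromosome. Of 24027 H3K27ac peaks, 1262 met this rule, and they are called flanking sites below. They made up 5.25% of the H3K27ac list. Among the 12027 H3K27ac peaks under 2500 bp that lacked H3K4me3, called narrow H3K27ac-only peaks, they made up 10.5% (Wilson 95% interval 9.96 to 11.1).

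The embryos were at developmental stage 24, during somite formation, and had been raised at 26 °C. Each chromatin sample pooled 600 whole embryos, with no genotype, strain, sex or treatment given in the labels, so a site can come from any tissue and sites next to each other need not be marked in the same cells. An antibody against H3K27ac from Abcam and one against H3K4me3 from Diagenode were used, and 1 peak list was at hand for each mark. The second H3K27ac sample of the series was not analysed here. A single list per mark allows no check between replicates, and since peaks of a list are not replicates no p-value is given. Intervals cover counting error only, and read depth is unknown.

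H3K27ac is placed by the acetyltransferases CBP and p300 and is found at active promoters and active enhancers, which are DNA elements that raise transcription from a promoter. H3K4me3 is placed by the SET1 and MLL family of methyltransferases and is concentrated where transcription starts. An acetylated site without H3K4me3 is therefore commonly read as a candidate enhancer, and one that lies close to an H3K4me3 peak may belong to the same gene or to its neighbour. The H3K4me3 peaks were not tied to genes here, because the gene table at hand could not be shown to be of the same genome build. The word promoter is therefore not used for them below. Coordinates count from 1 in the genome build of the peak files, which the sources used here do not name, and no sequence was read at them.

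Flanking sites were of ordinary width and mostly scored low, as narrow H3K27ac-only peaks at other distances also did. The median width was 1056.5 bp (interquartile range 739 to 1488), against 1013 bp for narrow H3K27ac-only peaks at 5 to 20 kb and 975 bp for those at 20 to 100 kb. Together the flanking sites covered 1452 kb. The score, a value that the peak caller gave each peak and the authors deposited, has no unit and a minimum of 50.0 in the H3K27ac list. The median score of flanking sites was 97.5 (95% interval of the median 94.0 to 103), with a lowest value of 50.1 and a highest of 2655. At 5 to 20 kb the median was 108.9 (106 to 113), at 20 to 100 kb 104 (101 to 106) and beyond 100 kb 97.2 (91.1 to 103). The difference between flanking sites and peaks at 5 to 20 kb was -11.4 (-18.6 to -3.34), and flanking sites had the lower median on 20 of 24 chromosomes. Ranges of differences run between opposite limits of both medians and are not 95% intervals. The direction was not stable. The difference was 65.0 (10.6 to 111) when sites were chosen anew from the top 50% of each list by score. It was -0.08 (-9.78 to 6.56) when a peak counted as H3K4me3-marked only at 50% coverage. By edge distance it was -5.98 (-13.1 to 2.32), and with H3K4me3 extended by 500 bp -7.655 (-17.2 to 1.67). The other settings tried gave ranges that were negative throughout.

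The low scores did not hold for every flanking site. When the whole H3K27ac list was ranked by score into quintiles, 67.7% of flanking sites fell in the lowest 2 quintiles (65.0 to 70.2), against 62.8% of the peaks at 5 to 20 kb (61.4 to 64.2). At 20 to 100 kb the lowest quintile held 34.3% and the second 30.2%, against 37.3% and 30.3% of flanking sites. The highest quintile, which began at a score of 674, held 36 flanking sites. That is 2.85% of them (2.07 to 3.92), against 2.21% at 5 to 20 kb (1.83 to 2.66) and 1.30% at 20 to 100 kb (1.02 to 1.65). The interval for flanking sites overlaps that at 5 to 20 kb and lies above that at 20 to 100 kb. The 36 sites had a median width of 1260.5 bp, a median score of 882 and a median H3K4me3 score at the neighbour of 1410.

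Flanking sites spread over the whole range of distances that the rule allowed. The median midpoint distance was 2836.5 bp (interquartile range 1866 to 3860), and the nearest lay at 622 bp. There were 45 sites within 1000 bp and 144 from 1000 to 1500 bp. From 1500 bp onward each step of 500 bp held between 132 and 174 sites. The low number close in is partly set by the rule, since peaks that share no base must have their midpoints apart, and the widest of the 45 nearest sites measured 970 bp. Their median width was 605 bp, against 1204 bp at 3000 to 3500 bp. Median scores were 79.1 within 1000 bp and 112 at 3500 to 4000 bp, and the other distances lay between these values.

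**Figure D1:**
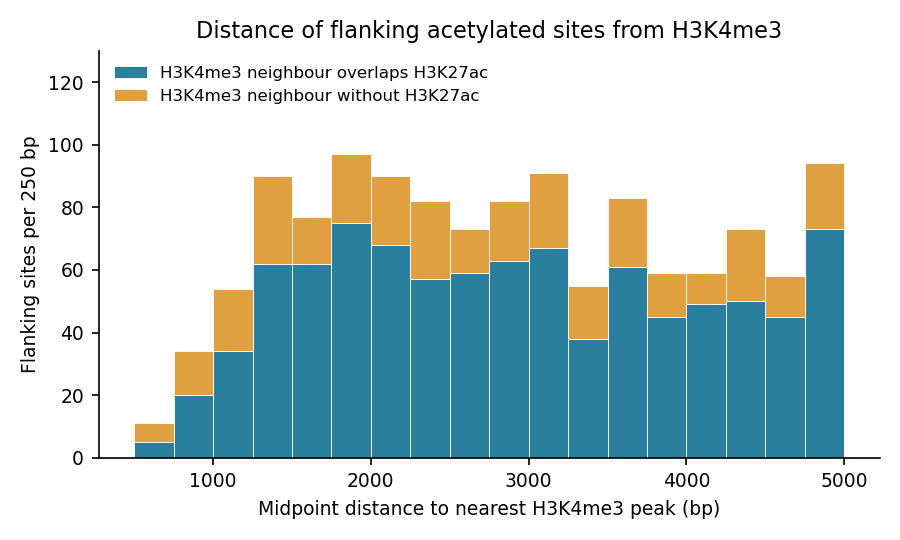
The plot gives the number of flanking sites per 250 bp of midpoint distance to the nearest H3K4me3 peak, split by whether that peak overlaps H3K27ac (933 sites) or not (329 sites). Sites whose neighbour overlaps no H3K27ac peak occur at all distances, with 20 of the 45 sites within 1000 bp.

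Measured from edge to edge, the gap to H3K4me3 had a median of 1571 bp (interquartile range 732 to 2646). The gap was under 200 bp for 87 sites, or 6.89%. The next H3K27ac peak of any kind was a median of 1880 bp away, against 6022 bp for peaks at 5 to 20 kb, which by definition lie farther from H3K4me3. For 401 flanking sites, 31.8%, another H3K27ac peak lay within 1000 bp. By coordinate, 49.5% of the sites lay to the right of their H3K4me3 neighbour (46.8 to 52.3), so neither direction along the chromosomes was favoured beyond counting error.

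The shortest gaps show how closely the calls of the marks could abut. On chromosome 16, a site of 1290 bp with a score of 103 ran from 12860669 to 12861958, and 3 bp separated it from an H3K4me3 peak of 1724 bp that was itself acetylated. On chromosome 3, a site at 12936747 to 12938026 was 4 bp from an H3K4me3 peak without H3K27ac, and another H3K4me3 peak followed 1332 bp beyond the site. The same gap of 4 bp was found on chromosome 7, at 12517529 to 12518236, and a gap of 5 bp at 3219212 to 3219808 on that chromosome, each beside an H3K4me3 peak without H3K27ac. The next was 12 bp, on chromosome 21, at 20972247 to 20972971.

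The H3K4me3 peaks beside flanking sites scored low for that mark. The nearest H3K4me3 peak had a median deposited score of 469 (425 to 536) for flanking sites, against 975 (922 to 1018) for peaks at 5 to 20 kb and 961 (914 to 1009) for peaks at 20 to 100 kb. For all 12884 H3K4me3 peaks the median was 1013.5. The neighbours' median score was lower for flanking sites than for peaks at 5 to 20 kb on 23 of 24 chromosomes, chromosome 17 being the exception. A neighbour counts once for each of its sites in these medians. Counted once each, the 1203 different neighbours of flanking sites had a median of 487, and the 11681 H3K4me3 peaks without a flanking site one of 1077. Per site, neighbours that overlapped an H3K27ac peak had a median of 821, against 1289 for all such H3K4me3 peaks. Those that overlapped none had a median of 139, against 110 for all such peaks. The rule favours neighbours without H3K27ac, as given below, and so sets part of the contrast in score. The neighbours were also narrower, with a median of 1092.5 bp for flanking sites, 1247 bp for peaks at 5 to 20 kb and 1151 bp for all H3K4me3 peaks. The rule sets part of this, since a nearby neighbour that shares no base with its site cannot be very wide. For sites within 1000 bp the neighbours' median width was 767 bp and their median score 147. In the steps farther out the widths were 963 to 1239.5 bp and the scores 284 to 693.

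Seen from the H3K4me3 list, flanking sites became scarcer from the third score quintile upward, with no fall between the lowest 2. With H3K4me3 peaks ranked by score, 12.8% of the lowest quintile had a flanking site (11.5 to 14.1), and in the second 13.1% (11.9 to 14.5). The shares were 9.51% in the third (8.43 to 10.7), 6.44% in the fourth (5.56 to 7.46) and 4.85% in the highest (4.09 to 5.75). The lowest 2 quintiles supplied the neighbours of 56.4% of flanking sites, against 39.8% of peaks at 5 to 20 kb. Of all H3K4me3 peaks, 49.9% overlapped H3K27ac in the lowest quintile and 99.8% in the highest. A peak that does so needs a second, separate H3K27ac call to have a flanking site, which sets part of the fall. How far the calling of peaks beside strong neighbours took part in the fall was not tested.

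**Figure D2:**
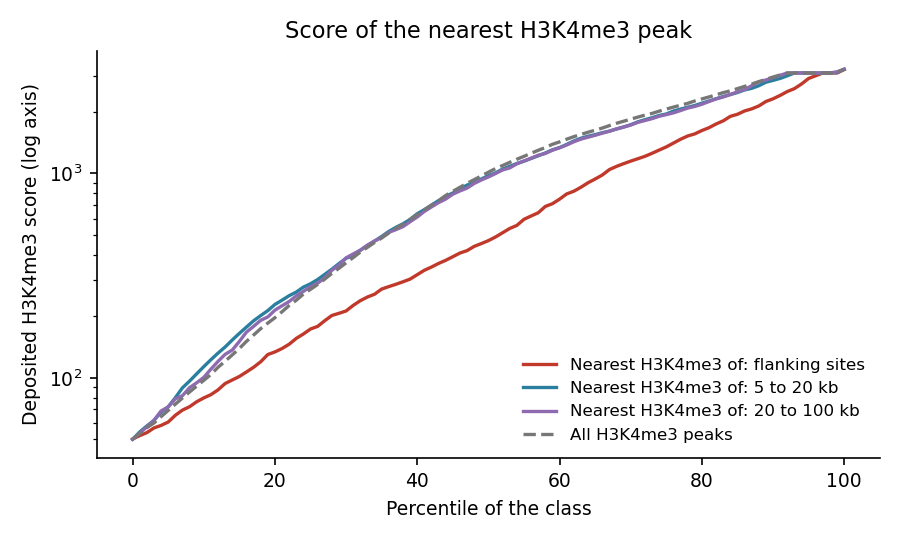
Each curve ranks the H3K4me3 scores (log axis) of the peaks nearest to flanking sites, to narrow H3K27ac-only peaks at 5 to 20 kb and at 20 to 100 kb, and, dashed, of all H3K4me3 peaks, by percentile. The curve of flanking sites runs below the others, with a median of 469 against 975 and 961, and meets them at the lowest scores and where scores pile up at 3100.

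Many of the neighbours had no called H3K27ac peak, and they are termed unacetylated for that alone. Acetylation too weak to be called cannot be told apart from its absence. Of the flanking sites, 329 had a nearest H3K4me3 peak that overlapped no H3K27ac peak, or 26.1% (23.7 to 28.6). The share was 13.3% for peaks at 5 to 20 kb (12.4 to 14.3) and 14.2% for peaks at 20 to 100 kb (13.3 to 15.2), and 14.1% of all H3K4me3 peaks lacked H3K27ac. The acetylated share was lower for flanking sites than at 5 to 20 kb on all 24 chromosomes. Chromosome 1, with 82.0% of flanking sites and 82.2% of peaks at 5 to 20 kb, had the smallest of these gaps. Of the 1819 H3K4me3 peaks without H3K27ac, 16.5% had a flanking site (14.9 to 18.3), compared with 8.15% of the 11065 acetylated ones (7.66 to 8.68). The rule sets part of this contrast, because an H3K4me3 peak with H3K27ac needs a second, separate H3K27ac call within 5 kb to have a flanking site, and one without needs only a first. The same limit bears on the shares of sites and on their comparison by chromosome. By midpoint distance, the acetylated share was 55.6% within 1000 bp and 66.7% at 1000 to 1500 bp. In the steps farther out it was 71.7% to 78.8%.

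The lower acetylated share went along with the low H3K4me3 scores of the neighbours, and was also seen within the lower score quintiles. The rule bears on every quintile, since an acetylated neighbour there still needs a second, separate H3K27ac call. The quintiles therefore cannot show how much of the lower share the rule sets. In the lowest quintile, 41.4% of flanking sites had an acetylated neighbour (36.4 to 46.7), against 52.0% of peaks at 5 to 20 kb (48.6 to 55.4). A neighbour counts once for each of its sites here. Of all H3K4me3 peaks of that quintile 49.9% were acetylated. In the second quintile the shares were 70.7% (65.8 to 75.2) and 82.2% (79.8 to 84.4). In the middle quintile they were 94.5% (90.9 to 96.7) and 97.1% (95.9 to 97.9), and these intervals overlap. In the highest quintile only 1 of the 129 flanking sites had a neighbour without H3K27ac.

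**Figure D3:**
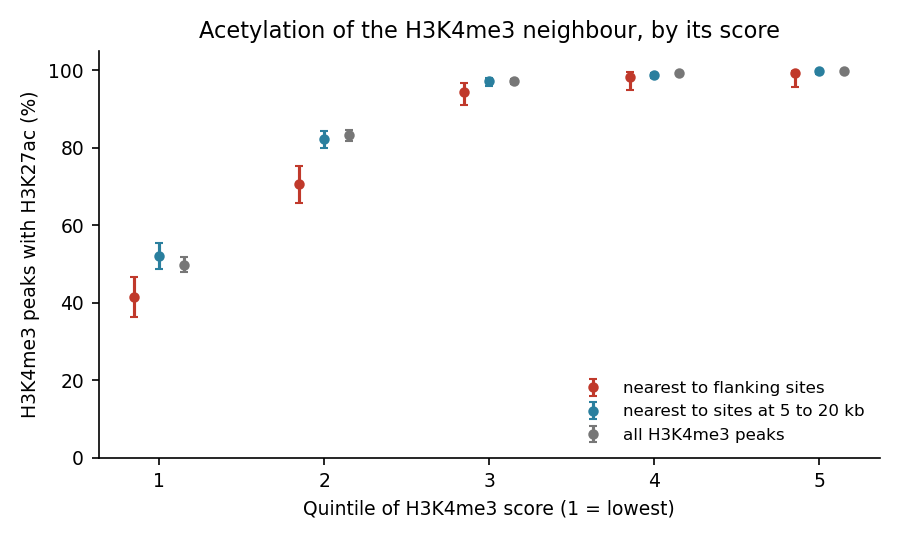
Points show the percentage of flanking sites and of sites at 5 to 20 kb whose nearest H3K4me3 peak overlaps H3K27ac, by quintile of its score. A neighbour counts once for each of its sites. The third series is the percentage of all H3K4me3 peaks that overlap H3K27ac, and bars are Wilson 95% intervals. Flanking sites lie lowest in quintiles 1 and 2, at 41.4% and 70.7%, and all classes exceed 94% from quintile 3 upward. The rule for flanking sites bears on their share in every quintile.

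The 329 sites with an unacetylated neighbour were much like the rest in median score and median gap, but a larger part of them lay close in. Their median score was 106 (93.2 to 117), against 96.0 (91.9 to 102) for the 933 sites with an acetylated neighbour, and their median edge gap was 1593 bp against 1567 bp. By midpoint distance, 20 of the 329 and 25 of the 933 lay within 1000 bp. A further 48 of the 329 and 96 of the 933 lay at 1000 to 1500 bp. The neighbours of the 329 sites had a median H3K4me3 score of 139 and a median width of 879 bp, compared with 821 and 1166 bp. The next H3K27ac peak was a median of 7778 bp from these sites and 1424 bp from sites with an acetylated neighbour, 2 values that the split itself sets apart, since an acetylated neighbour brings an H3K27ac peak close to its site.

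Where the neighbour was acetylated, the flanking site was usually the lesser of the 2 H3K27ac peaks. In 714 of 933 cases, 76.5% (73.7 to 79.1), its score was below that of the H3K27ac peak on the neighbour, compared with 85.7% for peaks at 5 to 20 kb (84.6 to 86.7). Beside this smaller share, the neighbours' H3K27ac peaks had a median score of 234 for flanking sites and 493 at 5 to 20 kb. The flanking site scored higher in 219 cases. In those its median score was 205, against 92.4 for the H3K27ac peak on the neighbour, and its median width was 1229 bp. In the 714 others the medians were 82.5 and 306, and the median width was 1005 bp. For 873 of the 933 sites, 93.6%, the H3K27ac peak of the neighbour was also the nearest other H3K27ac peak. Over all 933, the gap to the neighbour's acetylated edge had a median of 1593 bp.

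**Figure D4:**
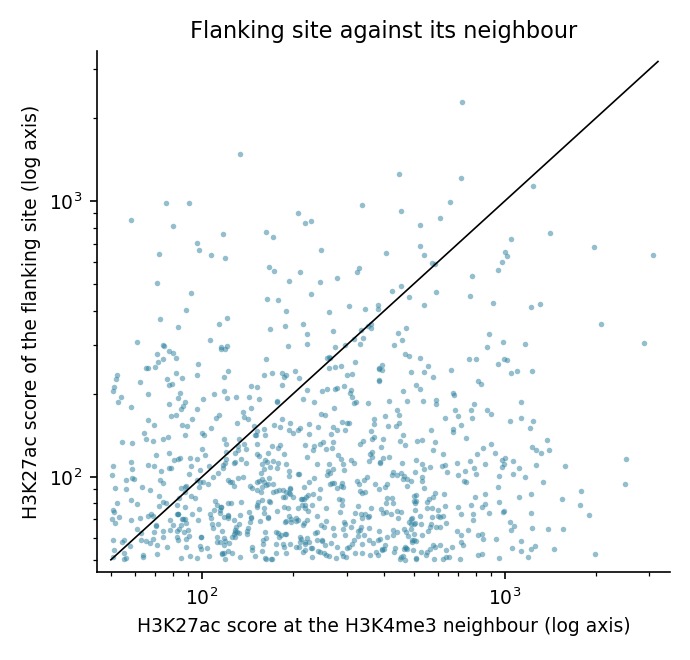
Each point is 1 of the 933 flanking sites with an acetylated neighbour, with its own H3K27ac score against the score of the H3K27ac peak on the neighbour, both on log axes, and the line marks equal scores. Most points, 714, lie under the line, and 219 lie above it.

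The acetylation of the neighbour was shifted little toward the flanking site. The comparison set the reach of the neighbour's single H3K27ac peak beyond the H3K4me3 edge on the side of the site against its reach on the opposite side, among neighbours with sites on 1 side only. The longer reach lay on the side of the site in 473 of 884 cases, 53.5% (50.2 to 56.8), and on 13 of 24 chromosomes it did so in the majority. At 5 to 20 kb the share was 46.0% (44.3 to 47.7) and at 20 to 100 kb 46.9% (45.3 to 48.6). The neighbour's H3K27ac peak has to end before a flanking site begins, which limits its reach on that side and not on the opposite one. This limit is looser for the classes farther out, so the shares are not compared on equal terms. In each class a neighbour counts once for each of its sites, which the intervals ignore. Sites with equal reach on both sides were left out, 4 among flanking sites. The median reach was -26.0 bp on the side of the site and -31.0 bp on the other side, so at the median the acetylated peak ended within the H3K4me3 peak on both sides. By quartile of the edge gap, from the shortest to the longest, the shares were 55.7%, 56.8%, 50.5% and 51.1%, and their intervals overlap. When H3K27ac peaks up to 1000 bp apart were merged first, the share was 45.5% (41.4 to 49.7). The interval included 50% by edge distance (48.2 to 53.6) and at a limit of 6000 bp (48.3 to 53.9). It also did so without the width limit (49.3 to 55.7) and with H3K4me3 counted at 50% coverage (49.1 to 55.6). The remaining settings gave intervals above 50%, so the side of the longer reach was not stable.

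Most H3K4me3 peaks with a flanking site had a single one. Of the 1203 neighbours, 1145 had 1 site, 57 had 2 and 1 had 3. Sites lay on both sides of 37 H3K4me3 peaks, of which 16 lacked H3K27ac, or 43.2% (28.7 to 59.1), against 25.02% of all 1203 different neighbours (22.7 to 27.5). The rule sets part of this contrast. An acetylated neighbour with sites on both sides needs 3 separate H3K27ac calls, and an unacetylated one needs 2. The 16 without H3K27ac had H3K4me3 scores between 58.1 and 732, with a median of 139, and widths between 388 and 1889 bp. The other 21 neighbours with several sites had them on 1 side.

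The H3K4me3 peak with 3 flanking sites lay at chromosome 7, 12151137 to 12153025, was 1889 bp wide, had an H3K4me3 score of 204 and overlapped no H3K27ac. Sites at 12146760 to 12148577 and 12148727 to 12149916 preceded it, with scores of 82.3 and 59.4 and 149 bp between them. The third site, at 12154464 to 12156271 with a score of 63.0, followed it. On chromosome 1, the H3K4me3 peak at 2516378 to 2517410 had 2 sites on its left, with scores of 131 and 146, and carried an H3K27ac peak of similar score, 152. Also on chromosome 1, the peak at 2607208 to 2608558 had a site on each side, scoring 148 and 72.3, beside its own H3K27ac peak of 193. These last 2 H3K4me3 peaks are the first in position of the 57 with 2 sites.

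Some flanking sites stood between H3K4me3 peaks on both sides. For 93 sites, 7.37%, the H3K4me3 peak on the far side also began within 5 kb of the site's edge, and for 246, 19.5%, within 10 kb. Both H3K4me3 peaks were acetylated around 55 of the 93 sites, one of them around 28 and neither around 10. The 93 sites had a median score of 115 (97.0 to 148), against 96.3 (92.5 to 102) for the other flanking sites. At 5 to 20 kb the share within 10 kb was 4.42%, 214 of 4843 peaks. That class excludes an H3K4me3 midpoint within 5 kb, which nearly removes the share within 5 kb and limits the one within 10 kb.

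Flanking sites had fewer acetylated companions without H3K4me3 than peaks farther out. Another narrow H3K27ac-only peak lay within 10 kb, midpoint to midpoint, for 31.7% of flanking sites (29.2 to 34.3), against 44.4% at 5 to 20 kb (43.0 to 45.8) and 47.2% at 20 to 100 kb (45.9 to 48.6). The space around flanking sites holds at least 1 H3K4me3 peak by definition, where such peaks cannot lie. Another flanking site lay within 10 kb of 150 flanking sites, 11.9%.

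Flanking sites were found on all 24 chromosomes, in uneven shares. On chromosome 7 they made up 88 of 573 narrow H3K27ac-only peaks, 15.4% (12.6 to 18.5), and on chromosome 16, 81 of 548, 14.8% (12.1 to 18.0). The lowest shares were 35 of 494 on chromosome 17, 7.09% (5.14 to 9.69), and 47 of 626 on chromosome 3, 7.51% (5.69 to 9.84). Against the H3K4me3 list the order at the bottom was the same for chromosome 17, where 5.53% of H3K4me3 peaks had a flanking site. At the top it changed, with 13.8% on chromosome 23, 13.2% on chromosome 7, 12.4% on chromosome 22 and 12.2% on chromosome 16. Chromosome 1, the sex chromosome of medaka, had 61 sites, 11.3% of its narrow H3K27ac-only peaks (8.90 to 14.2). These extremes were picked from 24 chromosomes and do not test a difference.

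**Figure D5:**
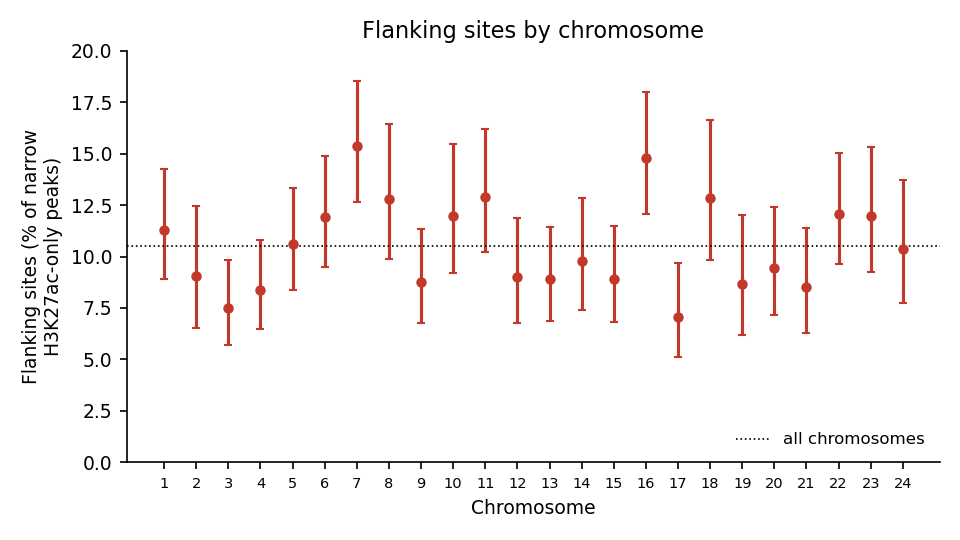
Points give flanking sites as a percentage of narrow H3K27ac-only peaks on each of the 24 chromosomes, with Wilson 95% intervals, and the dotted line marks the share over all chromosomes, 10.5%. Chromosomes 7 and 16 lie highest, at 15.4% and 14.8%, and chromosome 17 lowest, at 7.09%.

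The flanking sites of highest score lay beside very different neighbours. The highest, 2655, belonged to a site of 598 bp on chromosome 13, 3894608 to 3895205, 755 bp from an H3K4me3 peak with a score of 50.9, close to the minimum of that list, and without H3K27ac. The nearest other H3K27ac peak was 19.96 kb from this site. The second, also on chromosome 13, at 1740407 to 1741435, scored 2493 and lay 1.96 kb from an unacetylated H3K4me3 peak with a score of 1123, with a further H3K4me3 peak 2.52 kb away on its other side. A site of 2432 bp on chromosome 11, 13851359 to 13853790, scored 2273, against 724 for the H3K27ac peak on its H3K4me3 neighbour 2.63 kb away. On chromosome 12, a site at 18137989 to 18140277 scored 1648 and was 44 bp from another H3K27ac peak, and its neighbour was a 384 bp H3K4me3 peak without H3K27ac. The fifth, on chromosome 7 at 25460823 to 25461634, scored 1473 and lay 2.43 kb from an H3K4me3 peak with a score of 2949, whose H3K27ac peak scored 133. Of these 5 neighbours 3 had no H3K27ac, but among the 36 flanking sites in the highest score quintile 25 had an acetylated neighbour, or 69.4% (53.1 to 82.0), against 73.9% of all flanking sites.

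The limits of the rule passed through a continuous range of sites. Just inside the distance limit were sites at 4986 bp on chromosome 12, 4990.5 bp on chromosome 1 and 4992 bp on chromosome 3, with scores of 74.7, 116 and 94.4. Just outside it were peaks at 5005.5 bp on chromosome 21, 5005.5 bp on chromosome 23 and 5007 bp on chromosome 22, with scores of 473, 61.7 and 77.2. The widest flanking sites measured 2479 bp on chromosome 4 and 2497 bp on chromosome 22. The narrowest peaks left out by width measured 2525 bp on chromosome 12 and 2530 bp on chromosome 8. In all, 82 H3K27ac-only peaks within 5000 bp were left out for their width.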

How the data were processed

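Chromatin immunoprecipitation followed by sequencing was carried out on pooled stage 24 medaka embryos, with fragments of 200 to 300 bp, per the labels' protocols. The submitters' processing notes name Bowtie, a read aligner, and the authors' peak names contain MACS, a peak caller. The sources used here give neither its settings nor any control library nor the build. The deposited score of each peak was used only within its list. Scores pile up at 3100, a value of 62 H3K27ac and 882 H3K4me3 peaks and of 0 flanking sites. Chromosomes and ends are as deposited by the authors, and starts are the deposited ones plus 1, so that coordinates count from 1. On 8 of 24 chromosomes peaks ran past the last gene of the gene table, so no gene was assigned.

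Overlap meant at least 1 shared bp, and bedtools 2.31.1 gave the same 12938 H3K27ac-only peaks. The neighbour is the H3K4me3 peak of nearest midpoint, and no site had 2 equally near. Shares carry Wilson intervals and medians binomial intervals from ranked values. Values were computed with SciPy 1.17.1, pandas 2.3.3 and NumPy 2.4.6 in Python 3.11.15 and drawn with matplotlib 3.10.9, and the routines were tested on simulated lists with planted sites. The members, classes and comparisons were chosen with earlier results of these data known. Named regions are the 5 of highest score, the 5 of shortest gap, the 3 H3K4me3 peaks with most sites (ties by the order of the chromosome names, then position), and those beside the limits. The quartiles of gap, the counts per chromosome and the sites between H3K4me3 peaks were added after values had been seen. Alternatives covered distance, width, overlap, score and merging.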

Additional observations from a re-analysis of the deposited data

How the results depend on the processing

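Of 48 recomputed values (6 results under 8 alternatives), 30 stayed within the counting interval or, for the number of sites, within 1.5 times, 17 moved and 1 reversed. With only the top 50% of both lists by score there were 391 flanking sites, 7.61% of narrow H3K27ac-only peaks. These sites were chosen anew from the reduced lists and are not a subset of the 1262. An H3K27ac peak whose H3K4me3 peak was removed could become H3K27ac-only. Of the 391 sites, 82.6% had an acetylated neighbour. Among 323 such sites 67.8% scored below the neighbour's H3K27ac peak, and 61.2% of 322 lay on the side of the longer reach. The score difference to peaks at 5 to 20 kb reversed to 65.0, for a cause that was not tested. That difference was -0.08 with H3K4me3 counted at 50% coverage. Merging H3K27ac peaks up to 1000 bp apart gave a share of 8.17%, an acetylated share of 65.4% and 45.5% on the side of the longer reach. The last value is counted above as moved, although it lies on the other side of 50% from the reported 53.5%. Merging joins the sites nearest to an acetylated neighbour to that neighbour. The share of narrow H3K27ac-only peaks was 14.7% by edge distance, 8.13% at 4000 bp, 14.0% at 6000 bp, 12.4% at 50% coverage and 8.89% with H3K4me3 extended by 500 bp. The acetylated share was 78.3% by edge distance, 76.6% at 6000 bp and 64.1% at 50% coverage, where a site that overlaps its own neighbour is not counted as its acetylation. In all 8 alternatives the acetylated share was lower for flanking sites than for peaks from the distance limit to 20 kb. All 8 keep the rule that a site beside an acetylated neighbour is a separate H3K27ac call. They cannot show how much of the lower share that rule sets. At 50% coverage and after merging, the changed rules themselves lower the flanking share, so these are weak checks. Leaving out the width limit moved none of the 6 results. No paired analysis was possible because there was a single list per mark. Read depth is unknown, and weak sites near the score minimum limit every count.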
